A study of Mus musculus with 11 samples.

Results

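Long noncoding RNAs are transcripts that act without being translated into protein, and they differ widely in how they work. Some build nuclear bodies, some carry small RNAs in their introns, some bind proteins or microRNAs in the cytoplasm, and many start beside a protein-coding gene and have no established role. The genes described here are the 112 long noncoding RNAs that could be counted well in every sample of vascular endothelial cells sorted from mouse retina. They were chosen by annotation and by their raw counts: autosomal genes that GENCODE types as lncRNA and that had at least 50 reads in each of the 11 samples. The files held 55359 genes, of which 9657 are typed as lncRNA and 8926 of those lie on autosomes. Of the autosomal lncRNA genes, 3815 had at least 1 read in any sample, 389 had at least 1 read in each sample and 112 met the count rule.

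The retinas came from C57BL/6 mice in the oxygen-induced retinopathy model (OIR), in which high oxygen and the return to room air make vessels regress and then grow abnormally. At postnatal day 12 the eyes were injected with 0.5 µL of oncostatin M (OSM) at 100 ng/µL as the labels give it, a cytokine of the interleukin-6 family, or with the same volume of PBS. At postnatal day 17, CD31-positive cells without CD45 were sorted from both retinas of each mouse and their RNA was sequenced. There were 5 OSM mice (mice 1, 2, 5, 6 and 9) and 6 PBS mice (mice 3, 4, 7, 8, 10 and 11). They came from 3 litters, mice 1 to 4, 5 to 8 and 9 to 11, so that litter 3 held a single OSM mouse. All mice, the PBS mice too, carried the retinopathy and an injection, so there was no untreated group.

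Totals were 26697990 to 56033479 reads per mouse with a median of 32500202. The 112 RNAs took 0.235% to 0.505% of all reads, and without Malat1 they took 0.135% to 0.169%. The endothelial label held in every library: the summed normalized counts of 10 endothelial genes, among them Pecam1 and Cldn5, were 462697 to 637988, against 6367 to 14566 for 8 Müller glia genes and 10.1 to 2789 for 9 leukocyte genes. Genes of other cells were also present, at 14649 to 77802 for 10 mural cell genes and 6898 to 182993 for 9 rod genes. The highest rod sum was that of OSM mouse 5, whose endothelial sum was 521175. Most of the Müller glia counts came from Glul, with a mean of 8090 over the 11 mice. PBS mouse 3 stood apart with 20898 genes detected, where the other libraries had 16635 to 17697.

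A few sequences show what is known of how some of these RNAs work. Oip5os1, also called Cyrano, carries a site for the microRNA miR-7 and is known for directing the destruction of that microRNA. The site lies at chr2:119432620-119432642 of GRCm39 on the plus strand, in the gene's canonical transcript. It is shown under the microRNA, with the seed of the microRNA (bases 2 to 8) and the letters that pair with it in capitals.
mmu-miR-7a-5p: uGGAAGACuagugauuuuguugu
miR-7 site in Oip5os1: aacaaaatcaccaatGTCTTCCa

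Dleu2, Mir22hg and Mir99ahg are hosts of microRNAs, and the mature sequences follow as RefSeq gives them with GRCm38.p6, with the seeds in capitals. The reads counted here are those of the long host transcripts, and the microRNAs themselves were not measured. The microRNAs of Dleu2, miR-15a and miR-16, share the seed AGCAGCA.
mmu-miR-15a-5p in Dleu2: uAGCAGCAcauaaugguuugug
mmu-miR-16-5p in Dleu2: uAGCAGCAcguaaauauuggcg
mmu-miR-22-3p in Mir22hg: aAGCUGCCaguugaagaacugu
mmu-miR-99a-5p in Mir99ahg: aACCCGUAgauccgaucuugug
mmu-let-7c-5p in Mir99ahg: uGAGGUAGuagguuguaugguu
mmu-miR-125b-5p in Mir99ahg: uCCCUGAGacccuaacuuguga

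Malat1 and Neat1 keep most of their RNA in the nucleus, and the mature end of Malat1 is a triple helix in place of a poly(A) tail. The cDNA was primed on runs of A. The longest such run in the annotated transcript of both RNAs is therefore shown in capitals, on the minus strand of GRCm39. The run in Malat1, at chr19:5845996-5846047 with its flanks, is 12 bases long and lies at positions 7576 to 7587 of the 7886 annotated bases. Where the mature Malat1 RNA ends relative to this run was not mapped. The run in Neat1, at chr19:5885942-5885988, is 7 bases long.
Malat1: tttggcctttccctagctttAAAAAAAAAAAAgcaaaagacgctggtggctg
Neat1: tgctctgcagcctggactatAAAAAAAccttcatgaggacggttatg
A run of 12 or more A was found in the canonical transcript of 23 of the 112 RNAs (20.5%) and of 11.5% of the 16962 tested genes with such a transcript. How far priming on such runs shaped the levels below was not tested.

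Malat1, which resides in nuclear speckles beside splicing factors, was by far the most abundant. Its level was 230.2 ± 88.3 RPKM (SD, n = 11), where RPKM is the read count relative to transcript length and library size. It alone made up 37.8% to 68.5% of the reads of the 112 RNAs. The next levels, over the length of all annotated exons, were 15.6 ± 4.5 for 2810013P06Rik, 15.4 ± 2.9 for Bvht, 13.7 ± 2.3 for Gas5 and 13.5 ± 3.9 for AI506816. These neighbours in the order did not differ beyond their spread. Bvht, or Braveheart, is known from the commitment of embryonic cells to the heart lineage, and Gas5 is a snoRNA host that accumulates when growth stops.

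Levels between 6.46 and 11.4 RPKM completed the first 15. They belonged to 2010320M18Rik, Oip5os1, 2410006H16Rik, Gm16046, Gm49172, 5033406O09Rik, Gm35167, 2900060B14Rik, Gm4632 and D5Ertd605e. Of the 112 RNAs, 8 reached 10 RPKM, 84 lay between 1 and 10, and 20 lay under 1. The order depended on which length was used. With the same reads divided by the canonical transcript length, 29 reached 10 RPKM. Malat1 was then followed by Bvht at 146, Gas5 at 86.4, AI506816 at 78.2 and Zfas1 at 40.2. The reads still came from all annotated exons, so a canonical transcript much shorter than these raises the value. The lists of the first 15 by either length had 6 RNAs in common.

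**Figure D1:**
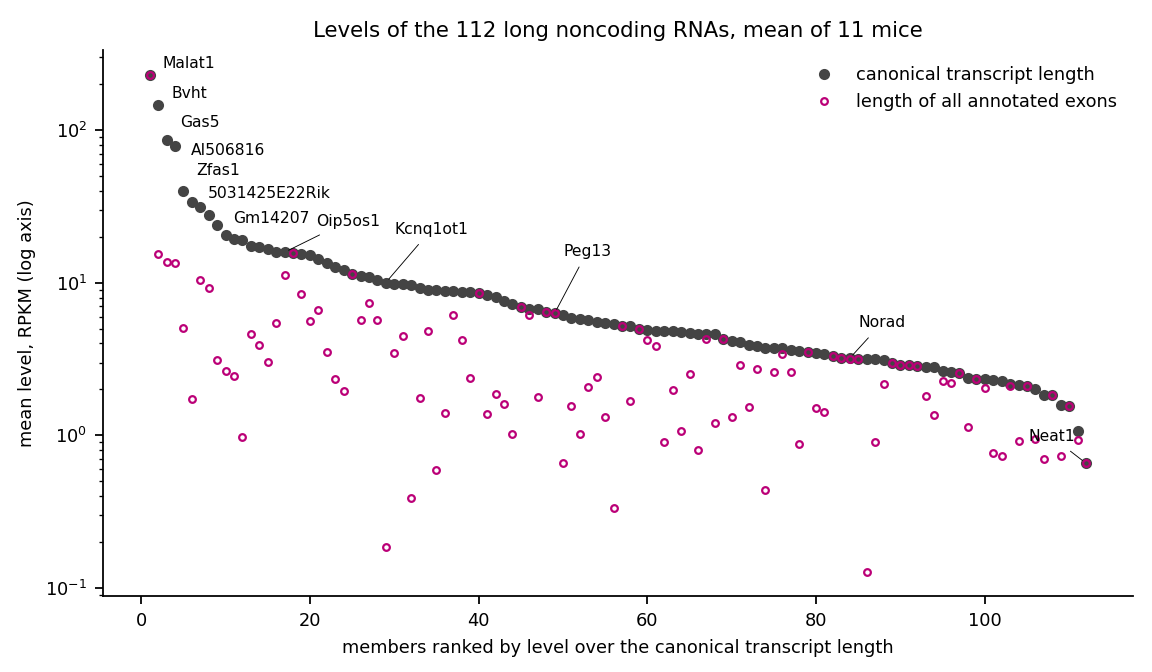
Mean level in RPKM (log axis) of the 112 long noncoding RNAs over 11 mice, ranked by level over the canonical transcript length. Filled points use the canonical transcript length and open points the length of all annotated exons. Malat1 stands at 230.2 by both lengths, while Bvht falls from 146 to 15.4 and Neat1 lies at 0.656 by both.

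Neat1, known from paraspeckles, was at 0.656 ± 0.358 RPKM over its annotated transcript, which at 22397 bases spreads its reads thinly. Reads were counted per gene, so the level of a shorter isoform could not be told from that of the long one. Norad, which binds Pumilio proteins and is known for keeping the genome stable, was at 3.17 ± 0.81. Its canonical transcript held the Pumilio element TGTANATA 11 times, counted on the transcript's own strand. The next highest number was 4 in Neat1, and 96 of the 112 RNAs had none. Among the imprinted RNAs, Kcnq1ot1, Airn and Peg13 met the count rule. Their reads over all annotated exons, divided by the canonical transcript length, gave 10.03, 6.10 and 6.30 RPKM. For Kcnq1ot1 the canonical transcript has 1722 bases and all annotated exons 93852, so 10.03 overstates its level per base.

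Several well-known RNAs were not counted well enough. Of 21 snoRNA hosts listed, 5 met the rule (Gas5, Zfas1, Snhg1, Snhg6 and Snhg8), and Snhg5 fell just outside with 49 to 574 reads. Meg3, a product of an imprinted cluster, had 0 to 158 reads per mouse and H19 had 0 to 5. Of 12 RNAs of retina or nervous tissue, Peg13 alone met the rule, and the other 11 had no read in at least 1 mouse. The highest count of each of these 11 in any mouse ran from 0 up to 611, the latter for Six3os1. Miat, a nuclear RNA known from retinal progenitors, had none in any mouse. The members nearest to the limit were 5031415H12Rik, 6430562O15Rik and Gm11131, each with 50 reads in its lowest mouse. Just outside lay Gm34574 and Snhg5 with 49 and 2310015A10Rik with 48. Tug1 is not among them because GENCODE types it as protein-coding, and it had 1343 to 3610 reads.

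Most of these RNAs lay close to a protein-coding gene. By canonical transcripts, 46 started within 1000 bases of the start of a coding gene on the other strand (head to head). Of the others, 27 overlapped a coding gene on the other strand, 3 overlapped one on the same strand and 36 were intergenic. In all, with head to head pairs included, 56 overlapped a coding gene on the other strand. For 44 of the 112 RNAs a canonical exon overlapped a canonical exon of a coding gene on either strand. Over all annotated exons, only 16 of the 112 shared no exon sequence with another gene of any type. The counting did not use strand, so reads from such stretches cannot be assigned to either gene.

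Head-to-head partners included regulators of vessel growth. Gm14207 started 67 bases from Dll4, the Notch ligand of endothelial tip cells, and Gm9889 overlapped the first bases of S1pr1, a receptor that steadies endothelial junctions. The most abundant of them over all annotated exons, 2810013P06Rik, started 36 bases from Ankrd11, a chromatin regulator. The windows that hold both starts of each pair are shown on the plus strand of GRCm39, with the bases from one start to the other in capitals.
Gm14207 and Dll4, chr2:119156073-119156200: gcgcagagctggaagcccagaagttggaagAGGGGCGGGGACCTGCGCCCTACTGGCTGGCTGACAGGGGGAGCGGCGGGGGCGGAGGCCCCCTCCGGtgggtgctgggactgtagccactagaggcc
Gm9889 and S1pr1, chr3:115508642-115508751: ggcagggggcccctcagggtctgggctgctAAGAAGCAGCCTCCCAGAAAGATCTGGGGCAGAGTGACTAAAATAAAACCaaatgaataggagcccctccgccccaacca
2810013P06Rik and Ankrd11, chr8:123769055-123769151: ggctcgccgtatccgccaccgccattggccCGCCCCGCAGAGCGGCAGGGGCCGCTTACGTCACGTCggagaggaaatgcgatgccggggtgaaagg
In the window of Gm14207, the lncRNA reads to the left from the first capital and Dll4 to the right from the last, and 80.9% of the capitals were G or C. In that of Gm9889 the transcripts run toward each other across the capitals, of which 46.0% were G or C.

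Levels here divide the reads of all annotated exons by the canonical transcript length. By these, 30 of the 46 head-to-head RNAs were lower than their coding partner and 16 were higher, with a median log2 ratio of -1.16. Gm14207 was at 23.7 RPKM and Dll4 at 84.5. Gm9889 was at 5.17 and S1pr1 at 220.1. Among overlapping genes, Gm16897 was at 4.80 beside 891 for Cd34, a surface protein of endothelial cells. Chaserr was at 3.48 beside 2.94 for Chd2, a chromatin remodeller that Chaserr is known to hold down. Canonical exons of Gm9889, Gm16897 and Chaserr overlap those of the coding gene named beside each, so reads from the shared stretches cannot be assigned to either. These levels also depend on the length used. Over all annotated exons Cd34 was at 184 RPKM. The annotated exons of Gm16897 have 5126 bases and its canonical transcript 964, and those of Chaserr 11786 and 5140. Gm14207, Gm16897 and Chaserr were named for their neighbours after their values were seen.

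The main comparison asked which of these RNAs differed 5 days after OSM. In none of the 112 did the OSM and PBS mice differ at an adjusted p under 0.05 (edgeR, quasi-likelihood test with litter as a term, Benjamini-Hochberg over 17050 genes). No gene of the 17050 was called, so the background was 0%. With an unadjusted p under 0.05 there were 2 RNAs of 112 (1.79%), both higher in OSM, where all tested genes gave 4.96%, made up of 2.25% higher and 2.71% lower. DESeq2 called 1 of the 112, where it called 168 of 22014 genes (0.763%). By an unadjusted p DESeq2 had 6 of the 112, beside 6.07% of all genes.

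**Figure D2:**
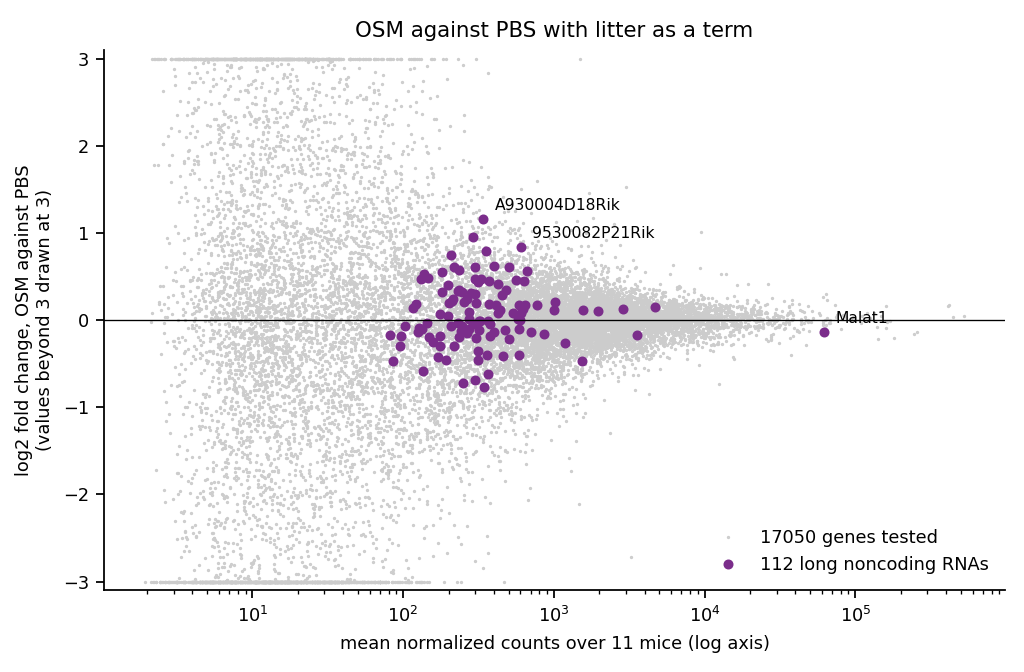
Log2 fold change of OSM against PBS, with litter as a term, against the mean normalized count over 11 mice (log axis). Grey dots are the 17050 genes tested, of which 1396 lie beyond 3 in either direction and are drawn at 3, and purple dots are the 112 long noncoding RNAs, which run from -0.77 to 1.17.

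The RNA with the lowest p was A930004D18Rik, an intergenic lncRNA of chromosome 2 (chr2:18024392-18042548, minus strand, GRCm39) with no known role, whose nearest coding gene is Skida1 at 6346 bases. Its normalized counts, which are reads scaled to the mean library size, were 562, 403, 465, 379 and 618 in OSM mice 1, 2, 5, 6 and 9. In PBS mice 3, 4, 7, 8, 10 and 11 they were 181, 189, 228, 264, 279 and 185. Every OSM mouse was above every PBS mouse. A930004D18Rik was the only one of the 112 whose groups did not overlap, a pattern that 0.405% of all tested genes had in either direction, 0.182% with OSM higher and 0.223% with OSM lower. The means were 485 ± 102 (SD, n = 5) and 221 ± 43 (SD, n = 6), and the log2 fold change was 1.17 with a standard error of 0.31. The unadjusted p of edgeR was 0.00326 and the adjusted p 0.955, while DESeq2 gave an adjusted p of 1.73e-05 at a log2 fold change of 1.16. The difference of OSM minus PBS was 1.36, 0.78 and 1.44 on the log2 scale in litters 1, 2 and 3. With each mouse left out in turn the unadjusted p was 0.00359 to 0.0197, and without PBS mouse 3 it was 0.00843. An antisense lncRNA that shares exon sequence with it, Gm13330, had at most 5 reads in any mouse.

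The next was 9530082P21Rik, on the plus strand at chr17:23962208-23973039, whose exons overlap those of Kremen2 and Flywch1 on the other strand. Kremen2 had at most 3 reads in any mouse. Flywch1 had 1207 to 5332 reads and a log2 fold change of 0.18 (unadjusted p = 0.462, edgeR). The normalized counts of 9530082P21Rik were 745, 818, 1049, 752 and 619 in the OSM mice. In the PBS mice they were 422, 755, 715, 279, 193 and 273, so that PBS mice 4 and 7 lay within the OSM range. The log2 fold change was 0.84 with a standard error of 0.32 (unadjusted p = 0.0228, adjusted p = 0.955, edgeR), and the litters gave 0.47, 0.99 and 1.43. Without OSM mouse 9 the unadjusted p was 0.115, without OSM mouse 5 it was 0.0542, and without PBS mouse 3 it was 0.0466.

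Markers of other cells also differed between the groups before adjustment. All 5 erythrocyte genes listed had a higher level in OSM at an unadjusted p under 0.05, with log2 fold changes of 1.02 to 1.46 (adjusted p = 0.955 for each, edgeR). Their summed normalized counts were 12216 to 38445 in OSM and 3973 to 20296 in PBS. The 10 mural cell genes all had negative values, of which Pdgfrb and Higd1b had an unadjusted p under 0.05, and their sums were 21030 to 39619 in OSM and 14649 to 77802 in PBS. The part of these cells in the values of A930004D18Rik and 9530082P21Rik was not tested. In sorted cells measured in bulk, fewer cells of a type and less RNA per cell cannot be told apart.

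**Figure D3:**
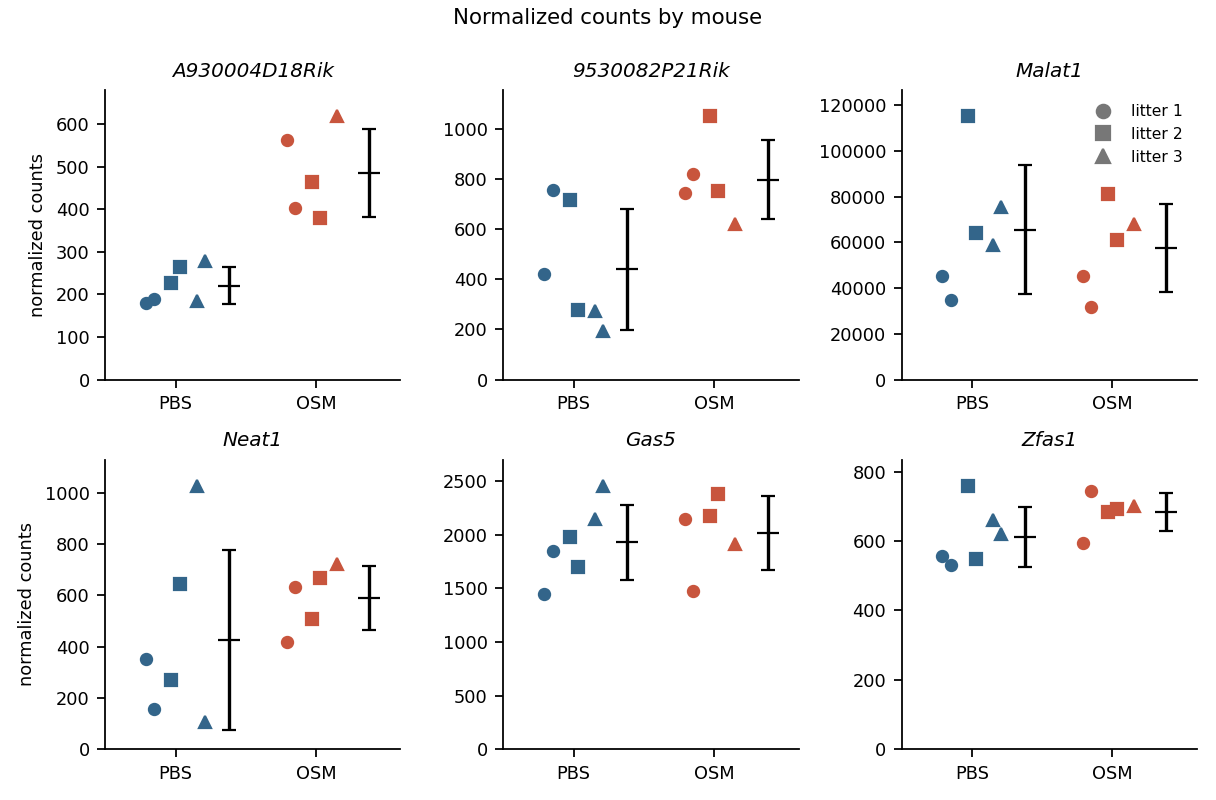
Normalized counts of 6 long noncoding RNAs in each mouse, on axes that start at 0, with PBS in blue and OSM in red and the shape giving the litter. Black marks are the group mean ± SD of 6 PBS and 5 OSM mice. For A930004D18Rik the OSM mice, at 379 to 618, lie above the PBS mice, at 181 to 279, and in the other panels the groups overlap.

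The remaining 8 of the 10 lowest p-values ran from 0.0536 to 0.179 unadjusted. For 5033406O09Rik, an intergenic RNA, the log2 fold change was 0.57 ± 0.26 (SE), with 799 ± 307 normalized counts in OSM and 552 ± 151 in PBS, and OSM mouse 9 was highest at 1278. For Gm9889, beside S1pr1, it was -0.69 ± 0.38 with 226 ± 57 and 363 ± 102, while S1pr1 itself gave 0.09 ± 0.08. The set was completed by Gm45552, Gm32688, Gm20559, 6430562O15Rik, 1700052K11Rik and 2610507I01Rik, at log2 fold changes between -0.77 and 0.96. These 6 each rested in part on single mice. Without OSM mouse 2, 6430562O15Rik went from 0.96 to 0.14. Without OSM mouse 9, Gm20559 went from 0.46 to 0.12, Gm45552 from 0.62 to 0.24, Gm32688 from 0.45 to 0.27, 2610507I01Rik from -0.77 to -0.36 and 1700052K11Rik from -0.62 to -0.98. Without OSM mouse 5, 2610507I01Rik was -1.23 and 1700052K11Rik -0.37, without OSM mouse 6 2610507I01Rik was -0.49, and without PBS mouse 8 1700052K11Rik was -0.28.

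Within litters, 6 of these 10 had the same direction in each: A930004D18Rik, 9530082P21Rik, 5033406O09Rik, Gm45552 and 6430562O15Rik were higher with OSM and Gm9889 was lower. Over all 112 RNAs, 18 were higher with OSM in each litter (16.1%) and 9 were lower (8.04%), where all tested genes gave 11.6% and 13.4%. The median log2 fold change was 0.07 over the 112 RNAs and -0.01 over all tested genes, and 61 of the 112 were above 0 (54.5%, against 48.4% of all tested genes). Their middle values, from the lower to the upper quartile, ran from -0.16 to 0.31.

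**Figure D4:**
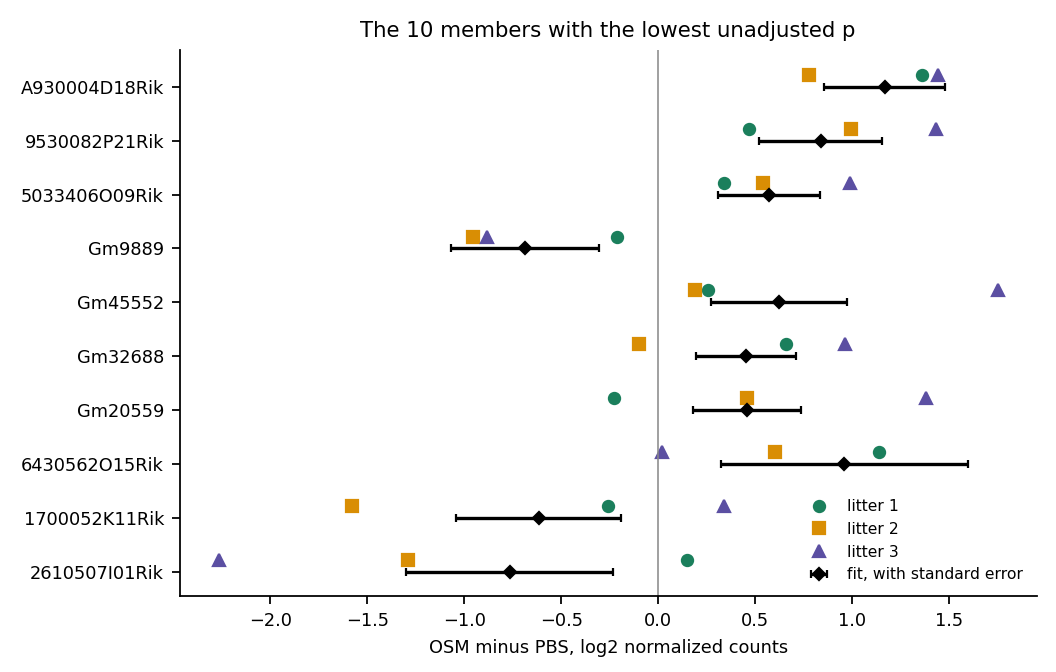
OSM minus PBS in log2 normalized counts for the 10 long noncoding RNAs with the lowest unadjusted p. Black diamonds with bars give the fitted log2 fold change and its standard error, and coloured shapes the difference within each litter, which for litter 3 rests on 1 OSM mouse. For A930004D18Rik the litters lie at 1.36, 0.78 and 1.44, and for 2610507I01Rik at 0.15, -1.29 and -2.27.

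Among RNAs of nuclear bodies, Neat1 had 418, 631, 509.8, 666 and 722 normalized counts in the OSM mice and 351, 158, 269, 645, 108 and 1027 in the PBS mice. The PBS mice spanned the whole OSM range, and the log2 fold change of 0.62 ± 0.52 did not pass (unadjusted p = 0.263, edgeR). Malat1 gave -0.14 ± 0.17 (unadjusted p = 0.431), with 57449 ± 19350 normalized counts in OSM and 65520 ± 28100 in PBS. None of 12 paraspeckle proteins and none of 11 proteins of speckles and splicing had an unadjusted p under 0.05, and their log2 fold changes lay between -0.38 and 0.38.

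The snoRNA hosts are RNAs whose introns hold the small nucleolar RNAs that guide ribosomal RNA modification. By position, 9 of the 112 RNAs contained one: Gas5, Zfas1, Snhg1, Snhg6, Snhg8, AI506816, 2410006H16Rik, 1110038B12Rik and A430035B10Rik. None had an unadjusted p under 0.05, and 7 of 9 had a log2 fold change above 0, with a range of -0.17 to 0.61. Zfas1, a host within the Znfx1 locus, had 594, 743, 684, 693 and 701 normalized counts in OSM and 556, 532, 758, 548, 620.1 and 659 in PBS, for 0.17 ± 0.20. Gas5 gave 0.11 ± 0.16, Snhg1 0.40 ± 0.52, Snhg6 0.47 ± 0.33 and Snhg8 0.53 ± 0.60. The 8 core proteins of snoRNA particles and the 10 proteins of nonsense-mediated decay, the pathway known to degrade spliced host RNAs, had none at an unadjusted p under 0.05. 1110038B12Rik and A430035B10Rik were named after their values were seen.

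The microRNA hosts shown above gave -0.14 ± 0.37 (SE) for Mir22hg, -0.45 ± 0.50 for Mir99ahg and 0.20 ± 0.39 for Dleu2. Mir99ahg was lower with OSM in each litter, with 67.5 to 206 normalized counts in OSM and 149 to 344 in PBS. None of 7 microRNA processing genes had an unadjusted p under 0.05. The imprinted RNAs were 0.18 ± 0.41 for Kcnq1ot1, -0.20 ± 0.50 for Airn and 0.21 ± 0.53 for Peg13, and Norad was 0.08 ± 0.31. Peg13 ran from 236 to 2239 normalized counts over the OSM mice and from 360.0 to 1397 over the PBS mice.

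Malat1 was lower in litter 1 than in the other litters. In litter 1 its normalized counts were 45495, 31565, 45278 and 34786, in litter 2 they were 81052, 60927, 114989 and 64046, and in litter 3 they were 68204, 75373 and 58649. Every mouse of litter 1 was below every mouse of the other litters. How many of all tested genes separate a litter in this way was not counted. The log2 difference from litter 1 was 1.02 for litter 2 and 0.76 for litter 3. The test of litter gave an unadjusted p of 0.00111 and an adjusted p of 0.134 (edgeR), and DESeq2 gave an adjusted p of 0.000633. When the genes tested were limited to those with at least 50 reads in each mouse, edgeR gave 0.0198. The samples come from 3 separate OIR experiments, and litter and experiment cannot be told apart. The summed normalized counts of 5 erythrocyte genes were 4650 to 14157 in litter 1, 18515 to 38445 in litter 2 and 3973 to 21071 in litter 3. Those of the 9 rod genes were 13009 to 17688, 20390 to 182993 and 6898 to 49835. Their part in the Malat1 values was not tested.

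No RNA of the 112 passed the litter test at an adjusted p under 0.05, where 3 of 17050 genes did (0.0176%). With an unadjusted p under 0.05 there were 5 of 112 (4.46%) beside 10.3% of all tested genes. DESeq2 called 5 of 112 for litter, where it called 7.11% of the genes with an adjusted p. With edgeR, 1 of the 112, Malat1, was called without a filter on low counts (2.16% of genes) and when only genes with 50 reads in each mouse were tested (1.28%). Beside Malat1, the 5 with an unadjusted p were 5031425E22Rik, AI506816, 2810013P06Rik and Dleu2. For 5031425E22Rik, litter 3 had 268 to 387 normalized counts and the others 596 to 867. AI506816 was 2261 to 3479 in litter 1 and 3719 to 5983 in litter 3, and litter 2 overlapped both at 2877 to 4045. The 2810013P06Rik counts were 721 to 908 in litter 3 and 928 to 1844 in the others. Dleu2 was 128 to 235 in litter 1 and 302 to 476 in litter 2, and litter 3 overlapped both at 172 to 482.

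The difference between OSM and PBS was not shown to vary by litter for any of the 112 (edgeR, interaction of treatment and litter), nor for any of the 17050 genes (0%). With an unadjusted p under 0.05 there were 2 of 112 (1.79%) and 6.42% of all tested genes. These were Gm39822, with litter differences of 0.77, 1.94 and -2.37 (adjusted p = 0.679, edgeR), and Gm26640, named after its values were seen (adjusted p = 0.745).

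The spread between mice differed widely among the RNAs. Zfas1 was the steadiest, with an SD of 0.18 on the log2 scale over the 11 mice, followed by Gm52992 at 0.24 and Gas5 at 0.25. The widest were 2810402E24Rik at 1.23, 6430562O15Rik at 1.19 and Gm39822 at 1.19. For 2810402E24Rik the normalized counts ran from 75.5 to 766, and both groups held mice near either end. The median SD was 0.56 for the 112 RNAs and 0.39 for the 8906 autosomal protein-coding genes that meet the same count rule, but their median normalized counts were 303 and 1493.

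At like levels the spread was closer. For a mean of 200 to 400 normalized counts the median SD was 0.66 in 48 of the RNAs and 0.70 in 718 coding genes, and for 400 to 800 it was 0.52 in 27 and 0.59 in 1651. For 800 and above it was 0.40 in 11 and 0.33 in 6424. These are descriptions without a test.

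**Figure D5:**
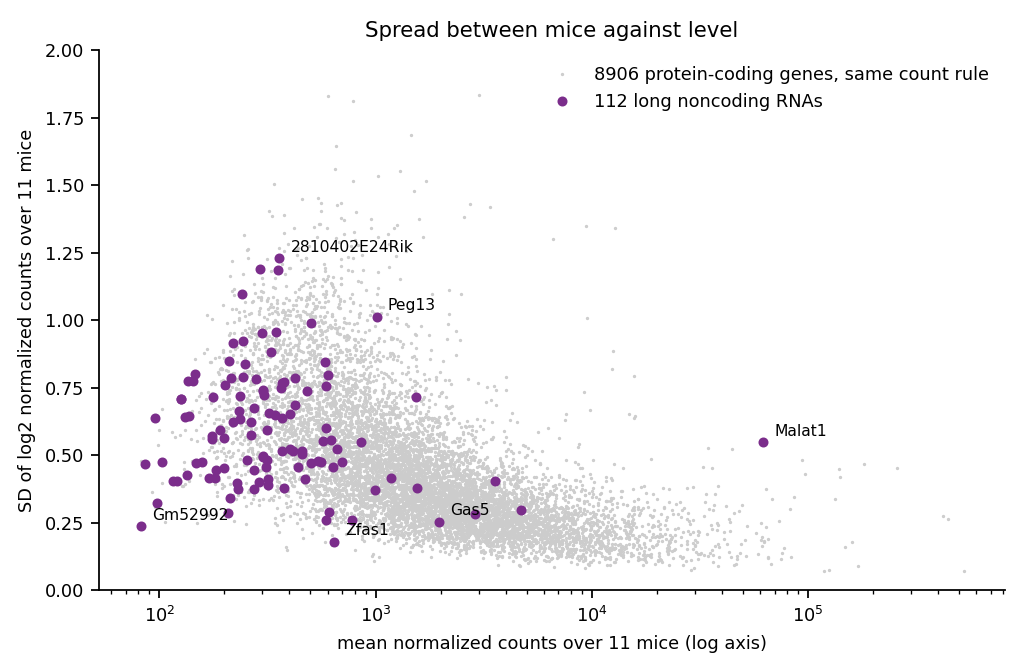
SD of log2 normalized counts over 11 mice against the mean normalized count (log axis), with the 112 long noncoding RNAs in purple and 8906 protein-coding genes of the same count rule in grey. Zfas1 lies lowest at 0.18 and 2810402E24Rik highest at 1.23, and Malat1, the most abundant, lies at 0.55.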

How the data were processed

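RNA was sequenced from CD31-positive, CD45-negative cells sorted from the pooled 2 retinas of each of 11 mice. The authors made cDNA from poly(A) tails with PCR amplification. They aligned the single-end reads to GRCm39 with STAR and counted reads per GENCODE gene in featureCounts with its defaults, which do not use strand. The deposited values are raw read counts per gene, not normalized. The headers inside the files of PBS mice 10 and 11 carry other mouse numbers, and the sample titles were followed. Of 55359 genes, 54749 were in GENCODE vM39 on GRCm39, which gave symbols, types and positions, and 610 were not.

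The members and the gene lists were chosen with earlier results of these data known, so no count over them is independent support. Tests used edgeR 4.0.16 in R 4.3.3 on all genes that passed filterByExpr with a count minimum of 10 (17050 genes, all 112 members among them). The model held litter and treatment, with TMM factors of 0.972 to 1.02, a robust quasi-likelihood fit, two-sided tests, Benjamini-Hochberg adjustment over all tested genes and a threshold of 0.05. Further fits tested litter and the interaction of treatment and litter. Normalized counts are counts scaled by the TMM library size to the mean library. RPKM divides the TMM-scaled CPM by the exon length in kilobases or, where stated, by the canonical transcript length. The reads are those of all annotated exons in both cases. Sequences came from GRCm39 or, for microRNAs, from RefSeq with GRCm38.p6. DESeq2 1.42.0 and the other alternatives are given in the closing section. Python 3.11.15, pandas 2.3.3 and matplotlib 3.10.9 did the rest, and the fit was tested on simulated data.

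Named members were the 15 with the highest level per length, all members on the fixed lists of known RNAs, the 10 with the lowest p for treatment and for litter, the 3 steadiest and 3 most variable, and the 3 nearest to the count rule on either side. Each mouse is 1 sample, the p-values measure the spread between these mice, and PCR duplicates could not be removed, since the reads carry no molecular identifiers. No pair of libraries was a copy: the lowest chi-square per gene was 77.1.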

Additional observations from a re-analysis of the deposited data

Results flagged for a closer look

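The following mice lay far from the rest of their group, by a gap to the nearest mouse that took more of the group's log2 range than Dixon's 95% limit. Of 92 groups of named RNAs tested, 9 passed the limit, which is set to flag about 1 in 20 by chance. The groups pooled the 3 litters, and some RNAs were named for their litter difference or spread. That share therefore need not hold here. Values are normalized counts. PBS mouse 10 was highest for AI506816 at 5983, with the next mouse at 3719, and lowest for Gm35167 at 75.6, with the next at 373, and for Airn at 70.6, with the next at 219. PBS mouse 7 was lowest for Norad at 215, with the next mouse at 557, and for 2700046A07Rik at 60.6, with the next at 197, and it was highest for Gm11131 at 179.6, with the next at 96.8. Among the OSM mice, mouse 1 was lowest for Mir99ahg at 67.5, mouse 9 was lowest for 5031425E22Rik at 387 and mouse 5 was highest for Gm52992 at 96.2. Mouse 9 was the only OSM mouse of litter 3. For 5031425E22Rik the PBS mice of that litter were lower still, at 357 in mouse 10 and 268 in mouse 11. PBS mice 7 and 10 each held 3 of the 9 flags.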

How the results depend on the processing

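The count of 0 RNAs called between OSM and PBS held under 23 of 24 alternatives: no litter term, DESeq2 size factors, no filter on low counts, only genes with 50 reads in each mouse, no robust estimation, libraries thinned to the smallest, each mouse or litter left out, and members with at least 20 or 100 reads or with no exon overlap. The alternatives by number of reads and by exon overlap only select members from the main fit. That fit called no gene, so their count of 0 was fixed in advance. DESeq2 called 1, A930004D18Rik, whose adjusted p ranged from 1.73e-05 to 1 over the alternatives. The cause was not tested. The 2 RNAs with an unadjusted p under 0.05 became 6 with DESeq2, 0 among the 16 members with no exon overlap with another gene and 2 to 4 when each mouse was left out. It was 4 without OSM mouse 1. For litter, the count of 0 became 5 with DESeq2, and 1 (Malat1) with no filter or with only genes of 50 reads in each mouse. The interaction of treatment and litter had 0 calls throughout and could not be fitted without OSM mouse 9. The 27 RNAs with 1 direction in each litter were 22 to 32 when a mouse was left out, an alternative added after seeing the data, as was scaling by total counts. No paired analysis was possible because each mouse number occurs once, in 1 treatment group.

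Of 24 log2 fold changes tested again, the 10 with the lowest p kept their direction in every alternative, but some came near 0: 1700052K11Rik was -0.03 without litter 2, 6430562O15Rik 0.14 without OSM mouse 2 and Gm20559 0.12 without OSM mouse 9. Directions changed for 8 RNAs of the fixed lists. With a mouse left out, Malat1 ranged from -0.231 to 0.026, Mir22hg from -0.325 to 0.096, Kcnq1ot1 from -0.205 to 0.416, Airn from -0.346 to 0.037, Peg13 from -0.031 to 0.621 and Norad from -0.117 to 0.271. Without litter 2, Snhg1 was -0.074, Gas5 -0.026 and Norad -0.074. Without litter 3, Mir22hg was 0.098 and Kcnq1ot1 -0.205. Without litter 1, Airn was 0.106 and Peg13 -0.165. With no litter term, Mir22hg was 0.013. Among the 15 highest levels, 9 moved by more than their SD with the canonical length and none with total counts.

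Precision is limited by 5 and 6 mice. On simulated data the fit recovered 22 of 50 genes changed 2-fold and 37 of 50 changed 4-fold. These were drawn from all tested genes with higher mean counts, and recovery among the members was not counted apart. Genes with few reads were not covered, and the simulated litter differences were small.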
